A study of Mus musculus with 13 samples.

Results

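The Tudor domain germ granule genes described here are 9 mouse genes chosen by name, Tdrd1, Tdrd3, Tdrd5, Tdrd6, Tdrd7, Tdrd9, Tdrd12, Tdrkh and Rnf17. All 9 were found among the 20662 gene symbols of the deposited spermatogonial tables. The libraries come from testicular spermatogonia, germ cells that still divide by mitosis, of wild-type C57BL/6 mice at postnatal week 8, from which total RNA was extracted and freed of ribosomal RNA before directional sequencing. One sample is titled KIT_AGSC, after the stem cell factor receptor that differentiating spermatogonia carry, and the other THY1_AGSC, after a surface antigen used to enrich undifferentiated spermatogonia. There is 1 library of each, and how the cells were sorted and how many animals were pooled is not given in the sources used here. The spermatocyte, spermatid and mature sperm samples of the series were not analysed here.

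A Tudor domain is a small protein fold that grips methylated arginine or lysine. In germ cells the Piwi proteins carry arginines methylated by Prmt5, and Tudor proteins bind them there. This gathers Piwi proteins, RNA helicases and precursor RNAs into granules, the intermitochondrial cement of spermatogonia and spermatocytes and the chromatoid body of spermatids, where Piwi-interacting RNAs (piRNAs) are made and used to silence transposons. In mice, loss of most of these genes stops spermatogenesis and leaves males infertile. Tdrd3 is used in many tissues.

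The transcripts of the sorting antigens ran against the sample titles. Kit was listed at 0 in the KIT-labelled library and at 36.7 FPKM in the THY1-labelled library, and Thy1 was found at 78.8 FPKM in the KIT-labelled library and at 0.723 FPKM in the THY1-labelled library. The headers of the value columns also carry the opposite names, Thy1 for the sample titled KIT and Kit for the other. Libraries are therefore called KIT-labelled and THY1-labelled after their titles, and every direction would turn if the titles were exchanged. With 1 library per group there is no test, no error and no replicate check, and the differences compare 2 libraries. FPKM (fragments per kilobase of transcript, scaled to the mapped total of the library) is a level per length, so levels of different genes can be set side by side. The total depth is unknown, but the value that 1 fragment is worth was estimated to be 6.41 times larger in the KIT-labelled library, which was therefore the shallower one. In that library 33.2% of all symbols were listed at 0, and in the THY1-labelled library 24.2%. Ppia, a gene of nearly every cell, was listed at 0 in both and Hprt, another, at 0 in the KIT-labelled library and at 56.2 FPKM in the THY1-labelled library, so a listed 0 is not read as absence.

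Of the 9 genes, 1 was higher by 2-fold or more in the KIT-labelled library and 6 in the THY1-labelled library on the log2(FPKM + 1) scale, and 2 lay within 2-fold. Across the 15573 genes with 1 FPKM or more in either library, 80.6% were past 2-fold, 39.5% toward the KIT-labelled library and 41.1% toward the THY1-labelled library. The median difference, KIT-labelled minus THY1-labelled, was -2.44 over the 9 genes and 0.00 over those 15573 (-0.0026 before rounding). Such a difference between 2 libraries can come from fewer cells of a type or from less RNA per cell, which bulk RNA cannot tell apart. None of the 9 was listed at 0 in either library. Their summed level was 74.7 FPKM in the KIT-labelled library and 326 FPKM in the THY1-labelled library.

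**Figure D1:**
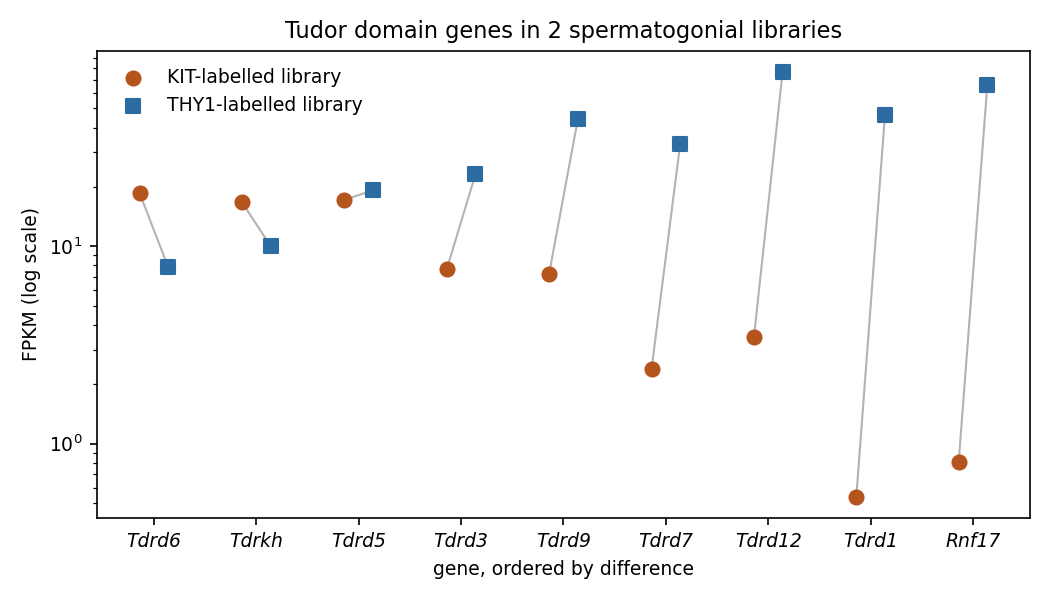
Level of each of the 9 genes in FPKM on a log axis, with circles for the KIT-labelled library and squares for the THY1-labelled library, 1 library each. Tdrd6 and Tdrkh stood higher in the KIT-labelled library, Tdrd5 was close to equal, and the other 6 stood lower in it.

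RefSeq promoter sequences on build GRCm38.p6, from 250 bases before to 50 after the most upstream start, were matched for 7 of the 9 genes, all but Tdrd6 and Rnf17. The promoters of Tdrd1 and Tdrd12, the most negative differences of the 7, are shown beside those of Tdrkh and Tdrd5, which were near equal or higher in the KIT-labelled library. All are written 5′ to 3′ on the strand of the gene, with CpG dinucleotides, the sites of DNA methylation, in capitals. They lie at chr19:56825959-56826258 on the plus strand (Tdrd1), chr7:35537695-35537994 on the minus strand (Tdrd12), chr3:94412994-94413293 on the plus strand (Tdrkh) and chr1:156303299-156303598 on the minus strand (Tdrd5).
Tdrd1: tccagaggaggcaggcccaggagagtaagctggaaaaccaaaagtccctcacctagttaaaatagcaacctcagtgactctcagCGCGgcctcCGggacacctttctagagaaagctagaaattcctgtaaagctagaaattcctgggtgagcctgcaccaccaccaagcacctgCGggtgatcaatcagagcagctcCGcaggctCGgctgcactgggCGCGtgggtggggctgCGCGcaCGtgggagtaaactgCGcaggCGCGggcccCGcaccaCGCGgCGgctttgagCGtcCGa
Tdrd12: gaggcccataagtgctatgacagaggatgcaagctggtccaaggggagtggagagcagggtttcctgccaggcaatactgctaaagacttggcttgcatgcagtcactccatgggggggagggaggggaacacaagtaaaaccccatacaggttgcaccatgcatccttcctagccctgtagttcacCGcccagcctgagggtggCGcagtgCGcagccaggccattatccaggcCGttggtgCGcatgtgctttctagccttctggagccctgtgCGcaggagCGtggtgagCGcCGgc
Tdrkh: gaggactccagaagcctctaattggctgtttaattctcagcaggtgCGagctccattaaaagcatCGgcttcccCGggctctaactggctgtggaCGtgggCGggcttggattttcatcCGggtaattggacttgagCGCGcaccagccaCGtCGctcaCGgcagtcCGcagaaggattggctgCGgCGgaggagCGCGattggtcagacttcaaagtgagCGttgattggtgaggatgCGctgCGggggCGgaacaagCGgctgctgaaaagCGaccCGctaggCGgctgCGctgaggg
Tdrd5: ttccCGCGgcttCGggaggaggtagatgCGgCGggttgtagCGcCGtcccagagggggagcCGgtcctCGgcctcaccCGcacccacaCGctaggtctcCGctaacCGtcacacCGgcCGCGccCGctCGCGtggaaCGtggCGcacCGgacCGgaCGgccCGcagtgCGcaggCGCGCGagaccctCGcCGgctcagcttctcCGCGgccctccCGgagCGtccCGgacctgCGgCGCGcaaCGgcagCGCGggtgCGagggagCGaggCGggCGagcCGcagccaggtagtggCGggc
Tdrd1 held 20 CpGs, Tdrd12 9, Tdrkh 25 and Tdrd5 48, against a median of 7 over the first promoters of 27025 genes. The rest held 43 (Tdrd3), 10 (Tdrd9) and 4 (Tdrd7). Tdrd5 had more CpGs than 98.8% of these promoters and Tdrd12 more than 53.8%. Genes near equality and genes with large negative differences were both found with more CpGs than the median promoter, although Tdrd7 (log2 difference -3.33) held fewer.

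Motifs were searched on both strands. The MYB motif TAACNG was found in 3 of the 7 promoters, 1 match each in Tdrkh, Tdrd7 and Tdrd5, and in 23.2% of the 27025 promoters. The longer form AACNGTT was in 0 of the 7 and in 4.37% of all, and the full cyclic AMP response element TGACGTCA, the site of Crem, was in 0 of the 7 and in 1.85% of all. CCAAT was matched 5 times in Tdrkh and 2 times in Tdrd9, and in 38.02% of all promoters. The GC box GGGCGG was matched 2 times each in Tdrkh and Tdrd3 and once in Tdrd12, and in 35.9% of all. The 2 MYB forms can overlap each other, and a match or its absence says nothing of binding.

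Tdrd1, Tdrd12 and Tdrd9, which work with Piwi proteins in making piRNAs, were each lower in the KIT-labelled library than in the THY1-labelled library. Tdrd1, a scaffold of the intermitochondrial cement that binds the methylated Piwi protein Mili (Piwil2), was at 0.540 FPKM in the KIT-labelled library and at 46.4 FPKM in the THY1-labelled library, a difference of -4.94 on the log2(FPKM + 1) scale. Tdrd12, which carries a helicase domain and takes part in loading secondary piRNAs onto Miwi2, was at 3.46 FPKM in the KIT-labelled library and at 76.5 FPKM in the THY1-labelled library (log2 difference -4.12). Tdrd9, a helicase of the DExH family that partners Miwi2 (Piwil4), was at 7.27 FPKM in the KIT-labelled library and at 44.0 FPKM in the THY1-labelled library (log2 difference -2.44). These genes were among the most abundant of the set in the THY1-labelled library, where Tdrd12 ranked 1461 of 20662 genes, Tdrd1 2481 and Tdrd9 2614. In the KIT-labelled library the same genes ranked 9310, 13511 and 6830.

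Rnf17, a RING finger and Tudor protein that forms granules of its own and restrains piRNA amplification in meiotic cells, had, with Tdrd1, the most negative differences of the 9. It was at 0.807 FPKM in the KIT-labelled library and at 66.0 FPKM in the THY1-labelled library (log2 difference -5.21), and ranked 13051 of 20662 genes in the KIT-labelled library and 1718 in the THY1-labelled library.

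Tdrkh, which sits on mitochondria and holds Piwi proteins while the nuclease Pnldc1 trims the ends of precursor piRNAs, did not share that pattern. It was at 16.7 FPKM in the KIT-labelled library and at 10.0 FPKM in the THY1-labelled library, a log2 difference of 0.68 that lies within 2-fold. Its promoter was the one with 5 CCAAT matches. The Tdrkh gene body overlaps by 2255 bases that of Oaz3, a spermatid gene on the opposite strand, in the GENCODE M21 annotation of build GRCm38. Oaz3 itself was at 168 FPKM in the KIT-labelled library and at 21.7 FPKM in the THY1-labelled library. Whether the authors' counting used the strand is not given in the sources used here, so reads of the overlap cannot be assigned with certainty, and their part in the Tdrkh value was not tested. Oaz3 was singled out for this overlap, after its values were seen. Tdrd9 likewise overlaps a protein-coding gene on the opposite strand, Rd3l, by 2207 bases. Rd3l was not among the listed symbols, so the same limit holds for Tdrd9 without a value to set beside it.

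The chromatoid body genes split. Tdrd6, a large protein of repeated Tudor domains needed for the architecture of the chromatoid body and known from spermatocytes and spermatids, was the 1 gene at least 2-fold higher in the KIT-labelled library, at 18.6 FPKM against 7.84 FPKM in the THY1-labelled library (log2 difference 1.15). Tdrd5, which joins LOTUS and Tudor domains and is needed for transposon silencing and for spermatids to mature, was at 17.2 FPKM in the KIT-labelled library and at 19.2 FPKM in the THY1-labelled library (log2 difference -0.15, a sign that turned under 2 of 3 scalings). Tdrd7, the other LOTUS and Tudor protein of the set, which is also required in the lens of the eye, was at 2.39 FPKM in the KIT-labelled library and at 33.1 FPKM in the THY1-labelled library (log2 difference -3.33). The LOTUS domain genes thus differed from each other, with Tdrd5 close to equal and Tdrd7 lower in the KIT-labelled library.

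Tdrd3, which reads methylated arginine on histones and partners the topoisomerase Top3b, was at 7.67 FPKM in the KIT-labelled library and at 23.1 FPKM in the THY1-labelled library (log2 difference -1.48). This was the smallest of the 6 differences past 2-fold toward the THY1-labelled library.

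The order of levels within the set was nearly turned round between the libraries. In the KIT-labelled library it ran Tdrd6, Tdrd5, Tdrkh, Tdrd3, Tdrd9, Tdrd12, Tdrd7, Rnf17 and Tdrd1, with 34.5 times between the highest and the lowest FPKM. In the THY1-labelled library it ran Tdrd12, Rnf17, Tdrd1, Tdrd9, Tdrd7, Tdrd3, Tdrd5, Tdrkh and Tdrd6, with 9.76 times between them. Across the 9 genes, which share both libraries and are not replicates, Spearman's rho between the libraries was -0.83 and Pearson's r of log2(FPKM + 1) was -0.81. Across the 15573 genes the same measures were 0.11 and 0.15, and across all 20662 listed genes they were 0.48 and 0.42. Without replicates it cannot be said which neighbours in either order differ beyond error, and the top of the order in the KIT-labelled library (18.6, 17.2 and 16.7 FPKM for Tdrd6, Tdrd5 and Tdrkh) was close to level. In the KIT-labelled library 5 of the 9 genes were above the median of the 15573 genes (5.49 FPKM), and in the THY1-labelled library 8 were above its median of 7.95 FPKM.

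How many fragments stand behind these values was estimated from each gene's longest annotated coding transcript and the worth of 1 fragment. In the KIT-labelled library, Tdrd1 came to about 1.02 fragments, Rnf17 to 1.55, Tdrd7 to 3.24 and Tdrd12 to 4.62. The sizes of these 4 differences are therefore uncertain. At the depth of that library, the levels seen in the THY1-labelled library would have come to about 87.9 fragments for Tdrd1, 127 for Rnf17, 44.96 for Tdrd7 and 102 for Tdrd12. Tdrd6, Tdrkh and Tdrd5 rested on about 48.0, 34.8 and 23.6 fragments in the KIT-labelled library, against 20.2, 20.9 and 26.4 that their levels in the THY1-labelled library would have given there. Tdrd3 and Tdrd9 rested on about 14.8 and 12.8 fragments, against 44.6 and 77.4. In the THY1-labelled library the estimates ran between 130 fragments (Tdrd6) and 815 (Rnf17).

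**Figure D2:**
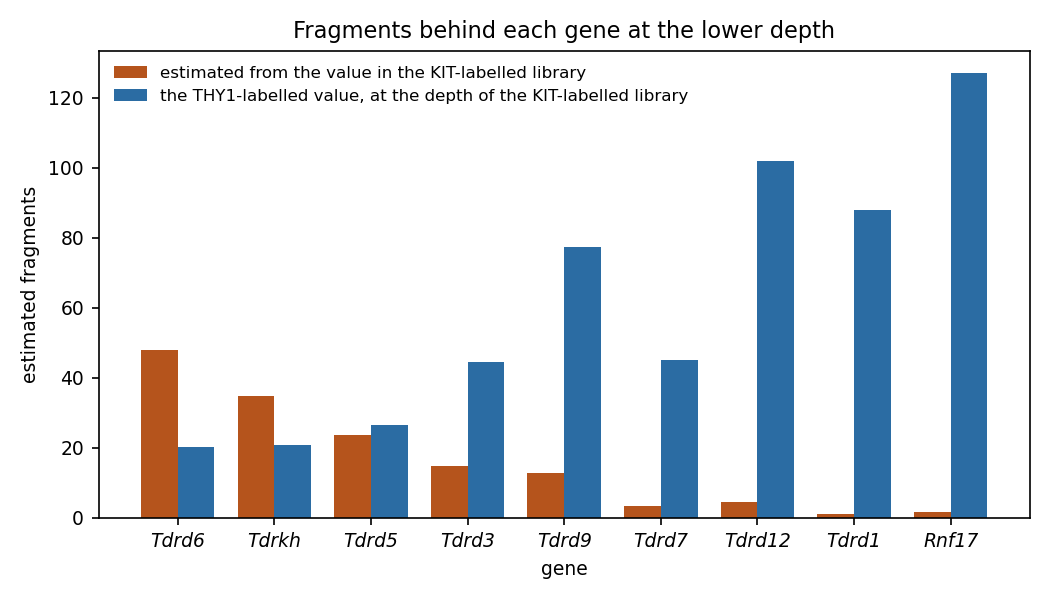
Estimated fragments behind each gene in the KIT-labelled library (left bar) and the number that the level in the THY1-labelled library would give at the same depth (right bar). Tdrd1 and Rnf17 rested on 1.02 and 1.55 fragments in the KIT-labelled library, and their levels in the THY1-labelled library came to 87.9 and 127 at that depth.

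Scaling to a median ratio of 1, to the same upper quartile or to the same sum without the abundant noncoding RNA Rpph1 moved the median of all genes by -0.55, 0.56 and 0.22 on the log2 scale. Tdrd1, Rnf17, Tdrd12, Tdrd7 and Tdrd9 stayed at least 2-fold higher in the THY1-labelled library under each. The difference of Tdrd6 was 0.64 after scaling to a median ratio of 1, and that of Tdrkh was 1.20 and that of Tdrd3 -0.93 after scaling to the same upper quartile. Tdrd5 turned to 0.39 and 0.06 after scaling to the same upper quartile and to the sum without Rpph1. Of the genes past 2-fold, 0 stood higher in the KIT-labelled library and 6 in the THY1-labelled library after scaling to a median ratio of 1, whereas 2 stood higher in the KIT-labelled library and 5 in the THY1-labelled library after scaling to the same upper quartile. Relative to the median of all genes, Tdrd6 and Tdrkh lay above and the other 7 below under each of these scalings.

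**Figure D3:**
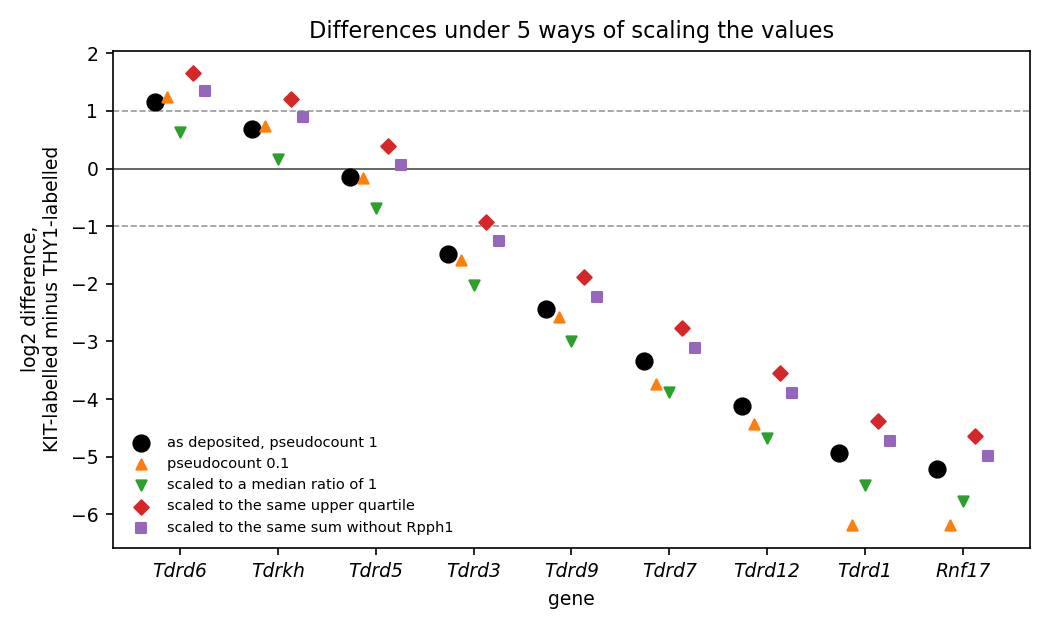
Difference of each gene, KIT-labelled minus THY1-labelled, on the log2(FPKM + pseudocount) scale as deposited and under 4 alternatives. Dashed lines mark 2-fold, and the sign of Tdrd5 and the 2-fold calls of Tdrd6, Tdrkh and Tdrd3 moved with the scaling.

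Partner genes of the granules are described from a list of Piwi proteins, piRNA factors and the transcription factor Mybl1. Of 16 usable genes of 18 listed, 3 were higher by 2-fold or more in the KIT-labelled library and 11 in the THY1-labelled library, with a median difference of -4.06. Over all usable genes the shares were 39.5% and 41.1%. The Piwi proteins Piwil1 (0.504 FPKM in the KIT-labelled library and 52.3 FPKM in the THY1-labelled library) and Piwil2 (1.67 FPKM in the KIT-labelled library and 39.3 FPKM in the THY1-labelled library) were named because Tudor proteins bind them. Piwil4 was low in both, listed at 0 in the KIT-labelled library and at 1.15 FPKM in the THY1-labelled library. Mael (889 FPKM), Gtsf1 (556 FPKM) and Ddx25 (126 FPKM in the THY1-labelled library), which the naming rule picked, were listed at 0 in the KIT-labelled library, as were 7 of the 16 in all. Pld6, the mitochondrial nuclease that cuts piRNA precursors, stood the other way at 37.1 FPKM in the KIT-labelled library and 2.76 FPKM in the THY1-labelled library. So did Gpat2 and Exd1, at 93.1 and 35.7 FPKM in the KIT-labelled library and 41.5 and 10.3 FPKM in the THY1-labelled library. Pnldc1, the trimming partner of Tdrkh, was listed at 0 in the KIT-labelled library and at 17.4 FPKM in the THY1-labelled library. Mybl1 (A-MYB), which switches on piRNA genes and many of their protein partners in mouse spermatocytes, was at 1.06 FPKM in the KIT-labelled library and at 40.1 FPKM in the THY1-labelled library. Without genes listed at 0 in a library the median of this list was -0.79, with 3 genes higher in the KIT-labelled library and 4 in the THY1-labelled library.

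The mark read by Tudor domains is written by arginine methyltransferases. Of 10 genes of arginine methylation, 2 were higher by 2-fold or more in the KIT-labelled library and 7 in the THY1-labelled library (median -3.10), against 39.5% and 41.1% of all usable genes. Of these genes 4 were listed at 0 in the KIT-labelled library, and without them 2 stood higher in the KIT-labelled library and 3 in the THY1-labelled library, with a median of -1.26. Prmt5, which methylates Piwi proteins, was at 0.843 FPKM in the KIT-labelled library and at 58.0 FPKM in the THY1-labelled library, and its partner Wdr77 at 4.87 FPKM in the KIT-labelled library and 34.6 FPKM in the THY1-labelled library. Prmt7 (96.4 FPKM) and Riok1 (18.9 FPKM in the THY1-labelled library) were listed at 0 in the KIT-labelled library. Carm1, which methylates histones and transcription cofactors, was at 106 FPKM in the KIT-labelled library and at 36.8 FPKM in the THY1-labelled library.

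Of 8 usable genes of 9 listed, members of RNA granules or partners of Tdrd3, 1 was at least 2-fold higher in the KIT-labelled library and 7 in the THY1-labelled library (median -2.03). The shares over all usable genes were 39.5% and 41.1%. Top3b, the partner of Tdrd3, was at 1.11 FPKM in the KIT-labelled library and at 58.0 FPKM in the THY1-labelled library. The RNA-binding genes Fxr1 and Fmr1 were at 19.2 and 1.02 FPKM in the KIT-labelled library and at 510 and 35.3 FPKM in the THY1-labelled library.

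Other genes with Tudor domains, whose difference from the 9 was not tested, stood on both sides. Of 15 usable genes of 19 listed, 4 were higher by 2-fold or more in the KIT-labelled library and 8 in the THY1-labelled library (median -1.09). These are 26.7% and 53.3%, against 39.5% and 41.1% of all usable genes. The median came to lie within 2-fold after scaling to the same upper quartile (-0.52) and to the sum without Rpph1 (-0.87). It did so with no minimum as well (-0.88). Stk31, a germ cell kinase with a Tudor domain, was at 126 FPKM in the KIT-labelled library and at 108 FPKM in the THY1-labelled library. Akap1, a mitochondrial anchor protein with Tudor and KH domains like Tdrkh, was at 4.45 FPKM in the KIT-labelled library and at 123 FPKM in the THY1-labelled library. Smn1, which helps build spliceosomal RNPs, was at 1.92 FPKM in the KIT-labelled library and 26.3 FPKM in the THY1-labelled library. Its relative Smndc1 stood the other way at 40.1 FPKM in the KIT-labelled library and 3.00 FPKM in the THY1-labelled library. So did the DNA damage reader Trp53bp1, at 161 FPKM in the KIT-labelled library and 45.8 FPKM in the THY1-labelled library.

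**Figure D4:**
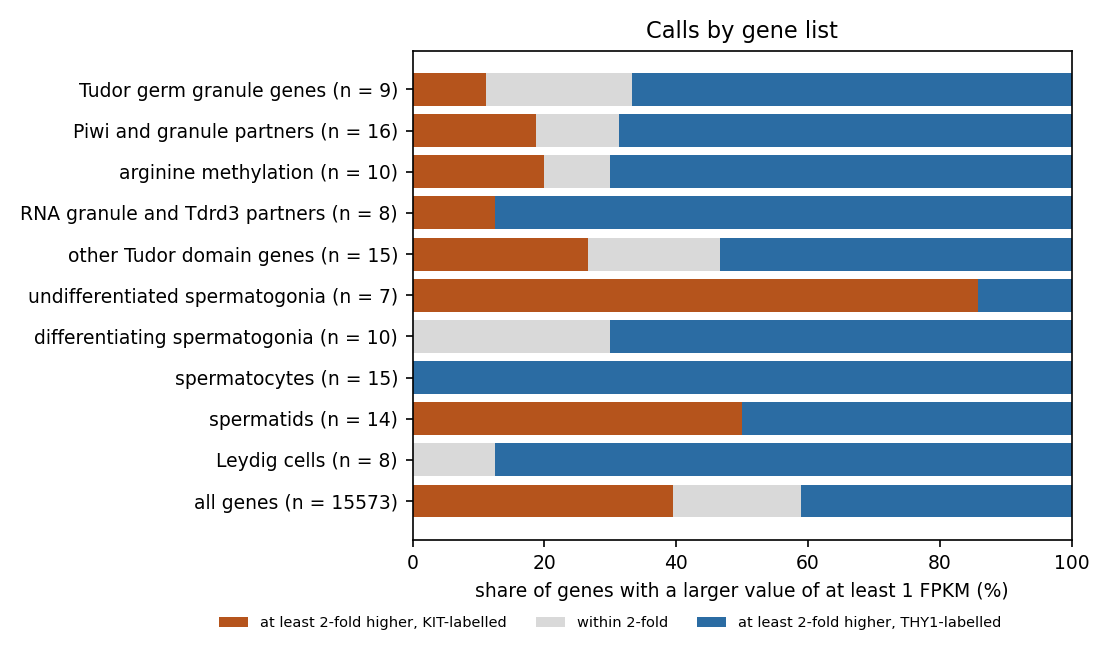
Share of the usable genes (larger value at least 1 FPKM) of each list that stood at least 2-fold higher in the KIT-labelled library (left), within 2-fold (middle) or at least 2-fold higher in the THY1-labelled library (right), with the number of usable genes in brackets. Of the 9 Tudor genes 6 were higher in the THY1-labelled library, against 41.1% of all genes.

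Markers of later germ cells and of somatic cells differed between the libraries as well, and their part in the values of the 9 genes was not tested. Most of the 9 genes are known to be transcribed in spermatocytes too. Of 15 spermatocyte markers, which include Piwil1, 0 were at least 2-fold higher in the KIT-labelled library and 15 in the THY1-labelled library, with a summed level of 176 FPKM in the KIT-labelled library and 8018 FPKM in the THY1-labelled library. In the KIT-labelled library 5 of them were listed at 0 (Dmc1, Hormad1, Tex101, Adam2 and Ccna1), and the synaptonemal gene Syce1 was at 1.37 FPKM there and at 285 FPKM in the THY1-labelled library. Spermatid markers split evenly, with 7 of 14 higher in each library and sums of 5025 FPKM in the KIT-labelled library and 3604 FPKM in the THY1-labelled library. In the KIT-labelled library Spaca1, Ropn1 and Crem were listed at 0, while the protamine Prm1 was at 2406 FPKM there and at 184 FPKM in the THY1-labelled library.

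Of 7 usable markers of undifferentiated spermatogonia among 12 listed, 6 were higher by 2-fold or more in the KIT-labelled library and 1 in the THY1-labelled library, with sums of 263 FPKM in the KIT-labelled library and 10.3 FPKM in the THY1-labelled library. Nanos2, Nanos3 and Thy1 were the most abundant of them in the KIT-labelled library, while Zbtb16 and Lin28a were listed at 0 in both libraries, Etv5 in the KIT-labelled library and Cdh1 in the THY1-labelled library. Of 10 markers of differentiating spermatogonia, 0 were higher by 2-fold or more in the KIT-labelled library and 7 in the THY1-labelled library, with sums of 43.4 FPKM in the KIT-labelled library and 187 FPKM in the THY1-labelled library. Kit, Sohlh2, Dnmt3b, Elmo1, Crabp1 and Rhox13 were listed at 0 in the KIT-labelled library. Without these genes, 0 stood higher in the KIT-labelled library and 1 in the THY1-labelled library, and the median difference was 0.12, against -2.88 with them.

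Of 8 usable Leydig cell markers among 9 listed, 0 were at least 2-fold higher in the KIT-labelled library and 7 in the THY1-labelled library, with sums of 189 FPKM in the KIT-labelled library and 12931 FPKM in the THY1-labelled library, and Hsd3b6 and Hsd17b3 were listed at 0 in the KIT-labelled library. Of 8 usable Sertoli cell markers among 11 listed, 3 were higher in the KIT-labelled library (Sox9, Amh and Wt1). Another 4 were higher in the THY1-labelled library (Amhr2, Clu, Inha and Vim). The sums were 26.3 FPKM in the KIT-labelled library and 1270 FPKM in the THY1-labelled library. Most of the latter was Clu (848 FPKM) and Vim (375 FPKM). Fshr, Gata1, Inha and Vim were listed at 0 in the KIT-labelled library. Fshr and Gata1 were also low in the THY1-labelled library, at 0.294 and 0.0531 FPKM. Of 7 usable peritubular and stromal markers among 10 listed, 4 were higher in the KIT-labelled library (Acta2, Cnn1, Tagln and Mylk). The other 3 were higher in the THY1-labelled library (Pdgfra, Dcn and Col3a1). The sums were 219 FPKM in the KIT-labelled library and 202 FPKM in the THY1-labelled library. Pdgfra and Dcn were listed at 0 in the KIT-labelled library and Des in both. Of 10 usable macrophage markers, 4 were higher in the KIT-labelled library (Cx3cr1, C1qa, C1qb and C1qc) and 4 in the THY1-labelled library (Mrc1, Aif1, Emr1 and Ptprc). The sums were 258 FPKM in the KIT-labelled library and 968 FPKM in the THY1-labelled library, where Aif1 alone was at 880 FPKM. Ptprc was listed at 0 in the KIT-labelled library and C1qc in the THY1-labelled library. The shares higher in the KIT-labelled and in the THY1-labelled library were 40% and 40% for macrophage markers. They were 37.5% and 50% for Sertoli cell markers and 57.1% and 42.9% for peritubular markers. Over all usable genes they were 39.5% and 41.1%, so the macrophage and Sertoli lists stood near the background.

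The genes most like a member over the 2 libraries were found as the nearest in the plane of the log2(FPKM + 1) values, among 18139 named genes. Tdrd9, which had the highest mean of the 9, lay nearest to Rbm42, Lamb1 and Tbpl1, at distances of 0.029, 0.034 and 0.035. These were at 7.11, 7.23 and 7.07 FPKM in the KIT-labelled library and at 43.8, 43.0 and 43.9 FPKM in the THY1-labelled library. Tdrd6, which had the most positive difference, lay nearest to Slamf9, Atp1b1 and Gipc1, at distances of 0.054, 0.066 and 0.092. These were at 18.0, 18.2 and 17.4 FPKM in the KIT-labelled library and at 7.66, 8.21 and 7.71 FPKM in the THY1-labelled library. Of the 18139 genes, 11 lay within a distance of 0.1 of Tdrd9 and 6 within that distance of Tdrd6. How many lie as near to other genes was not counted, so no meaning is drawn from likeness over 2 values.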

How the data were processed

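RNA was sequenced from mouse testicular germ cells, and the tables of the 2 spermatogonial samples, 1 library each, were used. The other 11 of the 13 samples were not analysed here. The deposited tables give 1 decimal value per gene symbol and no unit. They were taken as FPKM made by the authors with Cufflinks 2.1.1, per the submitters' processing notes, which also name TopHat 1.4.1, CASAVA and mm9 without roles. The annotation, strand setting and handling of multiply aligned reads were not given in the sources used. FPKM is divided by a total that holds the very abundant Rpph1 (1090800 FPKM in the KIT-labelled library and 304359 in the THY1-labelled library), so levels of other genes move with it.

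Samples were grouped by title, and tables were tied to samples by the series record. Differences are log2(FPKM + 1), KIT-labelled minus THY1-labelled, so changes of low genes come out too small. A gene was usable with 1 FPKM or more in either library, and a call needs a difference of 2-fold. The worth of 1 fragment was taken as FPKM times length at percentile 5 of values above 0, among genes with 1 GENCODE M21 transcript over 1000 bases (2735 in the KIT-labelled library and 427 in the THY1-labelled library, a ratio of 6.46 at percentile 2 and 5.98 at percentile 10). Counting was tested on simulated data.

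The members, gene lists, motifs and alternatives were chosen with earlier results of these data known. Named genes are all members, per list up to 3 genes of largest difference and 2 of highest mean, and the 3 nearest genes to 2 members. Others, namely Piwil1, Piwil2, Piwil4, Pld6, Gpat2, Exd1, Pnldc1, Mybl1, Wdr77, Oaz3 and Rd3l, were picked for their role, direction or overlap. Genes named as listed at 0 were picked for that value. Peritubular, Sertoli and macrophage markers past 2-fold are all named. Not every gene the rule picks is printed. Alternatives were a pseudocount of 0.1, 3 scalings, no minimum or a minimum of 5 FPKM, and genes above 0 in both libraries. Promoters were matched by symbol to RefSeq on GRCm38.p6, and no coordinates of the tables' build were used. Python 3.11.15, numpy 2.4.6, pandas 2.3.3, scipy 1.17.1 and matplotlib 3.10.9 were used.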

Additional observations from a re-analysis of the deposited data

How the results depend on the processing

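No paired analysis was possible because each group has 1 library, so no replicate could be left out either. The minimum settings and leaving out genes listed at 0 could not change a member's difference. Of 36 member differences under the other pseudocount and the 3 scalings, 33 kept their side of 2-fold, although Tdrd5, within 2-fold throughout, changed sign under 2 scalings. The 3 that crossed were Tdrd6 at 0.64 after scaling to a median ratio of 1, and Tdrkh at 1.20 and Tdrd3 at -0.93 after scaling to the same upper quartile. These follow from the scaling itself, which multiplies all values of 1 library by the same factor. The count of members at least 2-fold higher in the KIT-labelled library was 0 after scaling to a median ratio of 1 and 2 after scaling to the same upper quartile. Over all usable genes that count was 5395 and 6899 under these scalings, against 6147 as deposited. Differences of Tdrd1 ran between -6.18 and -4.38 and those of Rnf17 between -6.19 and -4.64, the lowest with a pseudocount of 0.1. Over all genes the count higher in the THY1-labelled library was 4175 without genes listed at 0, against 6408. In the same way it was 4 against 11 for Piwi and granule partners, 3 against 7 for arginine methylation, 1 against 7 for differentiating spermatogonia, 4 against 7 for spermatids, 2 against 4 for Sertoli cells, 1 against 3 for peritubular cells and 0 against 1 for undifferentiated spermatogonia. With a minimum of 5 FPKM, undifferentiated spermatogonia had 3 genes higher in the KIT-labelled library and 0 in the THY1-labelled library, macrophages had 2 in the THY1-labelled library, and the RNA granule and Tdrd3 partners had 0 in the KIT-labelled library. Of the list counts higher in the KIT-labelled library, scaling to a median ratio of 1 moved by over 1.5 times those of arginine methylation (1 against 2) and those partners (0 against 1), and each of the other scalings that of differentiating spermatogonia (1 against 0). Of 84 list medians, 6 came to lie within 2-fold and 4 passed it, and that of differentiating spermatogonia turned to 0.12 without genes listed at 0, where fewer genes remained. Medians within 2-fold also changed sign, that of Sertoli cells (-0.63) to 0.63 without genes listed at 0 and to 0.29 after scaling to the same upper quartile, that of spermatids (0.15) to -0.38 after scaling to a median ratio of 1, and that of macrophages (-0.05) to 0.48 and 0.16 after the other scalings and to 0.46 with a minimum of 5 FPKM. Depth limits the KIT-labelled library most, where Tdrd1 and Rnf17 were close to the worth of 1 fragment.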
